A study of Arabidopsis thaliana with 16 samples.

Results

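LATE EMBRYOGENESIS ABUNDANT (LEA) proteins are small, very hydrophilic proteins that accumulate in the embryo as the seed dries, and many of them are thought to protect membranes and enzymes while water is lost. In Arabidopsis, the transcripts of the seed-type genes are induced by abscisic acid (ABA) through bZIP factors such as ABI5, which act together with the B3 factor ABI3. Other family members are used in leaves and roots, where cold, drought or oxidative stress induces them, in part through CBF factors. The 51 loci described here form 9 classes of this family, taken from a list of locus names among the 40421 genes of the count table: LEA_4 (19 loci), dehydrins (10), SMP (6), LEA_3 (4), LEA_1 (3), LEA_2 (3), LEA_5 (2), AtM (2) and PvLEA18 (2). By what is known of each locus, 27 were set down as seed-type, 12 as vegetative and 12 were left unassigned. Earlier results of these data were known when the types were set. Contrasts between the types below are therefore descriptions and not independent tests of them. Counts of all transcripts of a locus were summed.

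Total RNA of the Col-0 accession of Arabidopsis was sequenced in 2 libraries for each of 6 stages: dry seeds, named DS; seeds stratified in water in the cold and dark, named S24 and S72 for the 24 h or 72 h they spent there; and seeds or seedlings in continuous light in shaken liquid medium, named L6, L26 and L57 for 6 h, 26 h or 57 h of light. By the methods of the study, seeds were stratified before they were grown in the light, and the move also brought warmth and another medium. Changes from S72 to L6 thus go with light, temperature and medium together, which cannot be told apart. The mutants hen2-4 and rrp4-2, in the Col-0 background, were sampled after the same 57 h of light, with 2 libraries each, and the labels give no other treatment. HEN2 is an RNA helicase that feeds transcripts to the nuclear exosome, and RRP4 is a core subunit of that RNA-degrading complex. The samples are whole seeds or seedlings, so a lower level could mean less RNA per cell or fewer cells that express the gene, which cannot be told apart here. The labels do not say that the 2 replicates came from separate cultures, and p-values measure only the spread between these libraries.

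Library totals ranged from 75618077 estimated counts (DS replicate 1) to 266418636 (rrp4-2 replicate 2). DS replicate 1 held 12.3% nuclear rRNA counts against 0.543% in DS replicate 2, and chloroplast features took 41.2% to 49.7% of the counts in the 6 libraries from 57 h of light. All 51 loci were in the table. A filter on low counts left 28824 genes for testing, among them 47 of the 51 members: AT2G03740, AT4G13230, AT5G53820 and AT3G53770 had at most 30 counts in any library and were not tested. Marker genes moved with the labelled stages: 4 seed storage and oil body genes summed to 54309 and 61465 CPM (counts per 1000000 counts of the library) in the DS libraries and to 34.3 and 40.9 CPM at L57, while 3 photosynthesis genes rose from sums of 12.2 and 13.4 CPM to 15938 and 16835 CPM.

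ABA response elements were more frequent in the 250 bases before the annotated gene start of seed-type than of vegetative members. This element (ABRE) is bound by bZIP factors and was searched by its core ACGTG and by the longer form ACGTGNC. The cold and drought element CRT/DRE, bound by CBF factors, was searched by CCGAC and the seed element RY, bound by B3 factors, by CATGCA, all on both strands. A palindromic CACGTG gives a match on each strand and so counts as a pair of matches. An ABRE core was found in 24 of 27 seed-type promoters (88.9%), in 6 of 12 vegetative promoters (50.0%), in 7 of 12 unassigned ones (58.3%) and in 6288 of 27443 promoters of all nuclear protein-coding genes (22.9%). The longer form was in 23 of 27 seed-type promoters (85.2%) against 2 of 12 vegetative ones (16.7%) and 8.57% of all genes. Seed-type promoters held 3.19 ABRE core matches on average, vegetative ones 0.667 and all genes 0.368. The CRT/DRE core was in 13 of 27 seed-type (48.1%), 4 of 12 vegetative (33.3%) and 3285 of all 27443 promoters, and the RY core in 6 of 27 (22.2%), 1 of 12 (8.33%) and 8.43% of all. These shares describe letters in the reference sequence and were not tested as enrichment, and a match is not evidence that a factor was bound. Stretches that reach into another gene were kept. That of the vegetative member COR15B lies almost wholly inside the COR15A gene, which is 7 bases away on the same strand. The 3 seed-type promoters without an ABRE core were those of ECP31, AT5G27980 and M17.

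**Figure D1:**
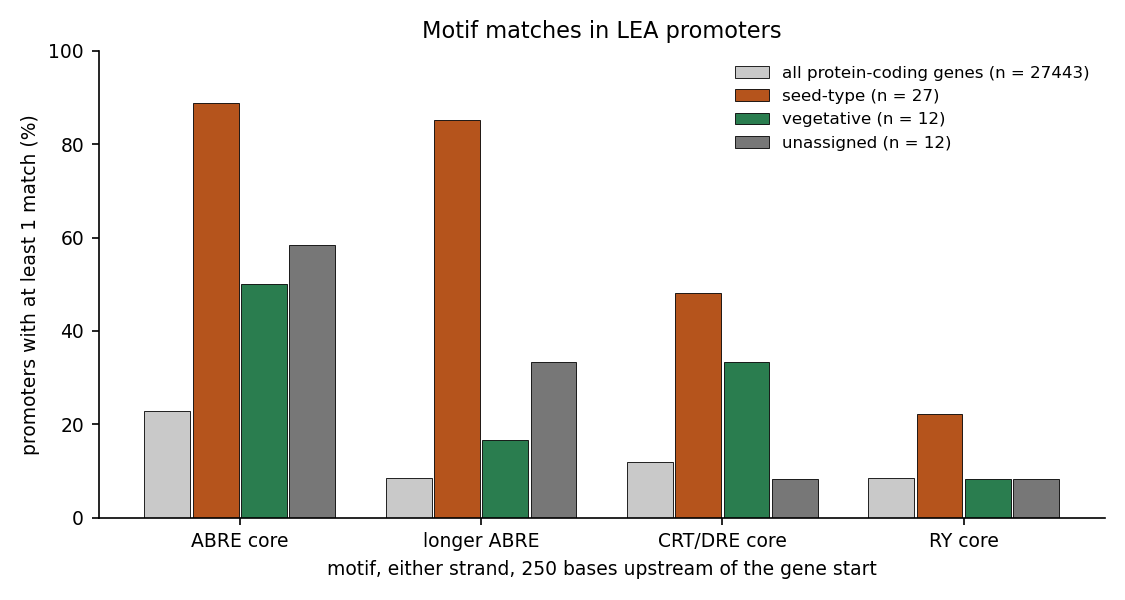
Share of promoters with at least 1 match (y axis, percent) to the motifs ABRE core, longer ABRE, CRT/DRE core and RY core (x axis), for all nuclear protein-coding genes and for the seed-type, vegetative and unassigned members. The longer ABRE stands at 85.2% in the seed-type bars and at 16.7% in the vegetative bars.

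The following 6 upstream sequences, from RefSeq on TAIR10.1, show the contrast for members that carry the results: 3 seed-type genes of high or fast-changing level, the adjacent dehydrin genes XERO1 (seed-type) and LTI30 (vegetative), and the vegetative dehydrin COR47. Capitals mark matches to the ABRE core, the CRT/DRE core or the RY core on either strand, adjoining matches run together, and each sequence ends on the base before the annotated start. They lie at chr2:16780369-16780618, minus strand (EM6), chr3:5310989-5311238, minus strand (AT3G15670), chr3:19666498-19666747, minus strand (AT3G53040), chr3:18941675-18941924, plus strand (XERO1), chr3:18940393-18940642, plus strand (LTI30) and chr1:7086874-7087123, minus strand (COR47).
EM6: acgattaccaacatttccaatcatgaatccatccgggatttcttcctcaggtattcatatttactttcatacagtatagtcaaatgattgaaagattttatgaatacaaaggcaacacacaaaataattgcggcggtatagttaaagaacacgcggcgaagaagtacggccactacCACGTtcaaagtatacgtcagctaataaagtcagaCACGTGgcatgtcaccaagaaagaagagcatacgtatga
AT3G15670: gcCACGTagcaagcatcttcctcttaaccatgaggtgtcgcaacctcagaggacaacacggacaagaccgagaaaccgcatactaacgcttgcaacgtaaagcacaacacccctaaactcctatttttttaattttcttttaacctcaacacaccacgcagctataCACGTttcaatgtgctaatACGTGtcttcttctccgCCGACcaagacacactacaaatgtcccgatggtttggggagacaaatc
AT3G53040: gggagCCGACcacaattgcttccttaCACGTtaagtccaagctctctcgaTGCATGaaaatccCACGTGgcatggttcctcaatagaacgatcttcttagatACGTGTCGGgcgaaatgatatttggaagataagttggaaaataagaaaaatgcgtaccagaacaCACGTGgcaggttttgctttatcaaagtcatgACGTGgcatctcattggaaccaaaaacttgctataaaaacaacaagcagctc
XERO1: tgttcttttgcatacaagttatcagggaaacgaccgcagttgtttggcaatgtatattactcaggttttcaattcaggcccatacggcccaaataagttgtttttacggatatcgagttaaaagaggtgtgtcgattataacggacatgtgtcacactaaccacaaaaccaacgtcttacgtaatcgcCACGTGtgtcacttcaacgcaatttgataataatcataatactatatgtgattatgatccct
LTI30: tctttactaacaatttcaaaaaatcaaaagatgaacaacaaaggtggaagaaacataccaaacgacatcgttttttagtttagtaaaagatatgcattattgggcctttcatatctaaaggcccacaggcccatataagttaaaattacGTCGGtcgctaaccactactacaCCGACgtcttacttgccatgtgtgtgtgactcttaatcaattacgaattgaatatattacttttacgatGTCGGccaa
COR47: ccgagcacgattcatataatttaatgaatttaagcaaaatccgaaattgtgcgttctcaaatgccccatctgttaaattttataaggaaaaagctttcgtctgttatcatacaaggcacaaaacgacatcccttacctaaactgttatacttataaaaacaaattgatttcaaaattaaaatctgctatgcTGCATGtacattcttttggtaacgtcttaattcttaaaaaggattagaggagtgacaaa
The AT3G53040 promoter held 7 ABRE core matches, that of EM6 held 3 and that of XERO1 held 2, both from a single palindrome. The LTI30 promoter held 3 CRT/DRE matches and no ABRE core, and that of COR47 held neither and 1 RY match. LTI30 and COR47 do not stand for all vegetative members, of which 6 of 12 held an ABRE core. The CRT/DRE core was found in 48.1% of seed-type and in 33.3% of vegetative promoters.

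The family made up a large part of the dry seed transcriptome and a very small part of that of the seedling. The 51 members took 7.64% and 8.28% of all counts in the DS libraries, 3.91% and 4.45% at S24, 2.67% and 2.58% at S72, 0.875% and 0.840% at L6, 0.411% and 0.329% at L26, and 0.0912% and 0.0858% at L57. The share was lower at every following stage, and the libraries of neighbouring stages did not overlap. Counting error was negligible beside the replicate difference, with a 95% Wilson interval of 7.63% to 7.64% in DS replicate 1.

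Nearly all of that loss was in the seed-type members. Their summed share went from 7.44% and 8.05% in DS to 0.00165% and 0.00230% at L57, whereas the vegetative members went from 0.133% and 0.151% in DS to 0.200% and 0.201% at S72, 0.0435% in both L6 libraries and 0.0853% and 0.0791% at L57. At L57 the vegetative members thus took most of the counts of the family, and in DS the seed-type members did. The vegetative sum is not the course of a typical member: LTI30 and LEA14 held most of it in DS, and LTI30 most of it at S72. The shares at L57 are of totals that also held many chloroplast counts. From DS to L57, 27 of 27 seed-type members were called lower at an adjusted p under 0.05, while of 12 vegetative members 7 were called higher and 3 lower. Among all 28824 genes tested in that comparison, 40.5% were called higher and 37.7% lower. The median log2 fold change was -12.25 over the seed-type and 1.84 over the vegetative members, against a median of all genes that was 0 to 2 decimals. With the 3 seed-type members without counts at L57 set to the limit that a floor of 3 counts per library allows, the seed-type median was -11.75. With the DESeq2 Wald test in place of edgeR, 26 of the 27 seed-type members were called lower from DS to L57.

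**Figure D2:**
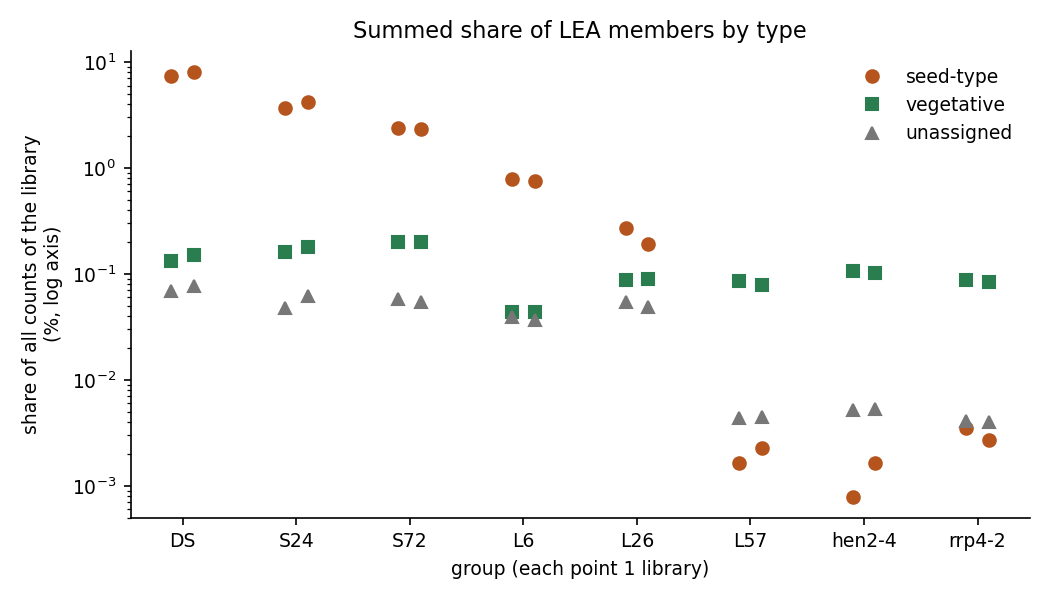
Summed share of all counts (y axis, percent, log axis) taken by the seed-type, vegetative and unassigned members in each of the 16 libraries, by group (x axis), where each point is 1 library. Seed-type points go from 7.44% and 8.05% in DS to 0.00165% and 0.00230% at L57, while vegetative points stay between 0.0435% and 0.201%. In DS and at S72 the vegetative sum is mostly the members LTI30 and LEA14.

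The fall began in the cold and was completed in the light. Of the 47 tested members, 36 were called lower and 3 higher from DS to S24 (all genes: 24.8% lower, 28.9% higher), and 25 of the 36 were seed-type. From S24 to S72, 26 were called (all genes: 53.8%), 16 of them lower (all genes: 27.7%). From S72 to L6, 32 were lower and 6 higher (31.0% and 33.8%). From L6 to L26, 31 were lower and 12 higher (28.1% and 30.2%), and from L26 to L57, 33 were lower and 9 higher (35.5% and 29.7%). The seed-type members lower at these 5 steps numbered 25, 14, 24, 26 and 26 of 27, and the S24 to S72 step was therefore the one at which fewest of them moved. With organellar and rRNA features left out of the totals, 23 members were lower at that step in place of 16.

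As a share of the dry seed level in CPM, the 26 seed-type members with at least 1 CPM in DS kept a median of 43.7% at S24, 22.8% at S72, 10.4% at L6, 2.68% at L26 and 0.0261% at L57. The mean CPM had dropped below 50% for good at S24 in 17 of them, at S72 in 5 and at L6 in 4. It was below 1% for good at L26 in 8 and at L57 in the other 18. For the median, the last step, from 26 h to 57 h in the light, was thus the largest in proportion. CPM are relative to all counts of a library, whereas the fold changes use TMM factors, on which the median seed-type log2 fold change from DS to S24 was -1.78. This is a deeper fall than the 43.7% left in CPM. With TMM factors only LEA7 (log2 -0.93), EM6 (-0.90) and LEA18 (-0.53) of the 26 had lost less than 50% at S24. The percentages and stages above therefore hold for CPM only. The median of all genes in that step was 0.22 with TMM factors, 0.08 with DESeq2 size factors and 0.44 without organellar and rRNA features. In CPM, the 8 vegetative members with at least 1 CPM in DS went the other way, with medians of 124%, 263%, 310%, 830% and 627% of the DS level at the same stages. The S24 value turns with the scale: with TMM factors the median log2 fold change of all 12 vegetative members from DS to S24 was -0.45, with 6 called lower and 2 higher. The lower CPM median at L57 than at L26 was not a fall of most vegetative members. With TMM factors, 7 of the 12 were called higher and 3 lower from L26 to L57, with a median log2 fold change of 1.14.

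**Figure D3:**
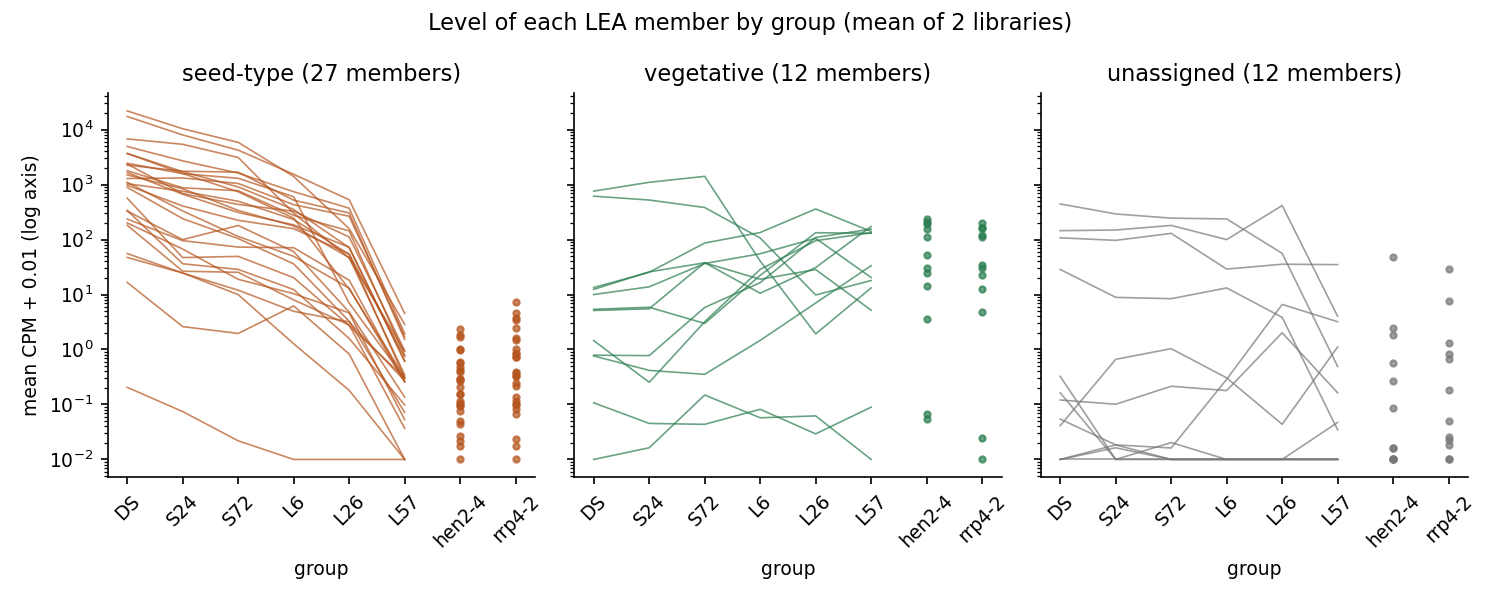
Mean CPM plus 0.01 of 2 libraries (y axis, log axis) for each member along the 6 Col-0 stages (lines) and in the mutants (points), in panels for the 27 seed-type, 12 vegetative and 12 unassigned members. Most seed-type lines fall most steeply from L26 to L57, where the median member kept 0.0261% of its DS level, whereas vegetative lines cross.

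The LEA_5 class holds the Em proteins, homologues of the wheat Em protein. EM6 measured 6683 and 6875 CPM in DS, 5248 and 5533 at S24, 3186 and 3036 at S72, 317 and 284 at L6, 56.2 and 36.3 at L26, and 0.862 and 0.962 at L57. It thus kept 79.5% of its dry seed CPM after 24 h in the cold and 45.9% at S72, but 4.43% after 6 h of light. With TMM factors its fall from DS to S24 was larger than in CPM (log2 -0.90, SE 0.24, adjusted p = 0.00621). From S72 to L6 it fell by a log2 of -3.83 (SE 0.27, adjusted p = 2.28e-08). On the log2 scale its largest step was the last one, -5.01 from L26 to L57 (SE 0.30, adjusted p = 6.64e-09). EM1, its paralogue, took another course: 223 and 141 CPM in DS, 23.6 and 29.4 at S24, a mean of 25.3 at S72, and 7.71 and 8.23 at L6, with 0 and 6 counts in the L57 libraries. It was already far lower at S24 (log2 -3.36, SE 0.28, adjusted p = 2.67e-07). The DS to L57 log2 fold change of EM6 was -13.23 (SE 0.40, adjusted p = 1.86e-12).

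The LEA_4 class, whose proteins form helices on drying, was the largest, with 11 seed-type members. AT3G15670 was the second most abundant member per length in DS, at 21369 ± 1783 TPM (TPM are the authors' length-scaled transcript values, SD, n = 2), after the dehydrin RAB18 at 31173 ± 1051 TPM and before EM6 at 11861 ± 33.1 TPM. AT3G15670 measured 16081 and 18544 CPM in DS, 7476 and 8480 at S24, 4387 and 4048 at S72, 1574 and 1500 at L6, 604 and 452 at L26, and 3.44 and 5.63 at L57, a log2 fold change of -12.25 over the whole series (SE 0.63, adjusted p = 4.51e-10). It became the member with the most counts at L6, once RAB18 had fallen further. AT3G17520 went from 2435 and 2273 CPM in DS to 0.664 and 1.23 at L57. LEA7, which is also known from stressed leaves, kept more of its level in the cold: 2160 and 2350 CPM in DS, 1517 and 1974 at S24, 1657 and 1704 at S72, 518 and 522 at L6, 349 and 258 at L26, and 1.16 and 1.87 at L57. Its call from DS to S24 (log2 -0.93, SE 0.28, adjusted p = 0.0123) was lost without S24 replicate 1 (adjusted p = 0.105). Another 6 seed-type LEA_4 members, AT4G21020, AT1G72100, AT4G36600, AT5G44310, ECP63 and AT2G18340, measured between 198 and 1672 CPM in DS and between 0.0415 and 0.740 CPM at L57.

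A few members fell early. AT2G42560 (LEA_4) measured 634 and 499 CPM in DS but 46.0 and 47.8 at S24, 48.2 and 50.5 at S72, and 19.3 and 21.2 at L6. AT3G53040 (LEA_4) measured 437 and 241 CPM in DS, 32.7 and 39.7 at S24 and 28.8 and 28.4 at S72. Both had thus lost most of their level within the first 24 h and hardly moved between S24 and S72, with log2 fold changes from DS to S24 of -4.17 (SE 0.17, adjusted p = 3.03e-10) and -3.81 (SE 0.27, adjusted p = 5.61e-08), while the median seed-type member changed by -1.78. M17 of the AtM class, which is expressed in maturing seeds, fell in the same step from 388 and 270 to 81.3 and 118 CPM (log2 -2.29, SE 0.26, adjusted p = 5.25e-06), then measured 187 and 174 CPM at S72 (log2 0.88, SE 0.25, adjusted p = 0.00952). That rise was not called with the DESeq2 Wald test (adjusted p = 0.155) or without S24 replicate 1 (adjusted p = 0.100). These members and EM1 also differed between the DS libraries: replicate 1 was 1.27, 1.82, 1.58 and 1.44 times replicate 2 for AT2G42560, AT3G53040, EM1 and M17, which with ECP63 were the 5 of 26 seed-type members above 1.2, while the median ratio was 0.929. DS replicate 1 was also the library with 12.3% rRNA, and its pollen marker sum was the lower one (102 against 147 CPM). The part of either in these ratios was not tested. The calls from DS to S24 of these 4 members held with either DS library left out. Other seed-type members fell at least as much as M17 in that step: AT5G53270 (log2 -3.25), AT3G22490 (-2.46), AT3G17520 (-2.35) and AT4G36600 (-2.30). Their ratios of DS replicate 1 to replicate 2 were 0.867, 0.877, 1.07 and 0.995. The largest falls of seed-type members in that step were those of AT2G42560, AT3G53040 and EM1, whose ratios were above 1.2. Whether an early fall goes with this ratio was not tested.

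Among the dehydrins, RAB18 is the classic ABA-responsive member and the most abundant one of the dry seed. It measured 21048 and 22621 CPM in DS, 9350 and 11338 at S24, 5915 and 5792 at S72, 1442 and 1364 at L6, 194 and 121 at L26, and 2.61 and 3.10 at L57. The stages did not overlap, and the fall came to a log2 of -13.27 (SE 0.52, adjusted p = 2.39e-11). Per length, the other seed-type dehydrins stood well below it in DS, AT2G21490 at 5369 ± 166 TPM and XERO1 at 1823 ± 174 TPM (SD, n = 2). AT2G21490 had 0.794 ± 0.121 TPM and XERO1 1.18 ± 0.0127 TPM left at L57.

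The transcript models of RAB18 changed places during the fall. AT5G66400.2 took 99.2% of the counts of the gene in DS and 99.1% at L6, with 1429 and 1351 CPM in the L6 libraries, and 7.74% at L26. The model AT5G66400.1, which starts further upstream, measured 12.9 and 12.4 CPM at L6 but 170 and 121 CPM at L26, where it took 92.3% of the counts, and all or nearly all of them at L57 and in both mutants. Both L26 libraries showed the change. StringTie divides the reads of a gene between its models by estimation. For SAG21, the model AT4G02380.3 had 203 CPM in L26 replicate 1 and 1.98 CPM in L26 replicate 2, so the division can differ between replicates of a stage.

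Seed maturation proteins (SMP) held both the largest and the smallest DS to L57 fall among seed-type members with counts in both L57 libraries. AT3G22490 and its neighbour ECP31 went from 830 and 947 CPM and from 3421 and 3933 CPM in DS to 0.0519 and 0.0713 CPM and to 0.332 and 0.276 CPM at L57. For AT3G22490 the fall was a log2 of -14.15 (SE 0.47, adjusted p = 4.63e-12). Between 6 h and 26 h of light ECP31 fell by 4.31 on the log2 scale (SE 0.23, adjusted p = 5.19e-09), and from L26 to L57 by 4.73 (SE 0.29, adjusted p = 7.80e-09). AT5G53260 measured 44.1 and 50.3 CPM in DS and had no counts in the L57 libraries, which makes it at least 1632-fold lower against a floor of 3 counts per library. AT5G53270 lies next to it on the same strand and had another course. It measured 15.4 and 17.7 CPM in DS, 2.84 and 2.36 at S24, a mean of 1.95 at S72, and 6.05 and 6.33 at L6, so that it was the only seed-type member called higher from S72 to L6 (log2 1.21, SE 0.16, adjusted p = 2.90e-05). RAB28 fell least (log2 -8.09, SE 0.30, adjusted p = 1.34e-11), from 53.4 and 57.6 to 0.208 and 0.312 CPM. AT5G27980 was close to the floor throughout, with 12 and 26 counts in the DS libraries and none at L57, at least 6.73-fold lower.

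LEA_1 members, which in Arabidopsis protect vegetative tissue from drought as well as being made in the seed, were 3 of the 5 seed-type members with the highest share of their DS level left at L26, beside LEA7 and ECP63 of LEA_4. LEA18 measured 1201 and 1373 CPM in DS, 1189 and 1446 at S24, 1048 and 1044 at S72, 441 and 421 at L6, 302 and 228 at L26, and 1.39 and 2.00 at L57. It was the only one of the 26 whose mean CPM was highest at S24, and its DS to S24 change with TMM factors was not called (log2 -0.53, SE 0.26, adjusted p = 0.105). LEA4-5 measured 4563 and 5293 CPM in DS, 2631 and 2755 at S24, 1646 and 1587 at S72, 756 and 726 at L6, 447 and 297 at L26, and 1.45 and 2.41 at L57. From L6 to L26 the log2 changes were small, -0.73 for LEA18 (SE 0.26, adjusted p = 0.0267), -1.03 for LEA4-5 (SE 0.29, adjusted p = 0.00867) and -0.97 for LEA4-1 (SE 0.16, adjusted p = 0.000120). Without L26 replicate 2 the changes of LEA18 (adjusted p = 0.187) and LEA4-5 (adjusted p = 0.0886) were not called, and that of LEA18 was lost also with the DESeq2 Wald test or without either L6 library (adjusted p from 0.0611 to 0.101). M10 of the AtM class fell by 6.47 over the same step (SE 0.22, adjusted p = 1.51e-10), from 618 and 583 to 8.21 and 5.67 CPM. At L26 the 3 LEA_1 members kept 7.55% to 20.6% of their DS level, the 11 LEA_4 members 0.465% to 13.5%, the 3 dehydrins 0.722% to 5.20%, the 5 SMP members 0.343% to 5.70%, the 2 LEA_5 members 0.682% to 1.53% and the 2 AtM members 0.284% to 1.46%. At S72 the order was another, with a median of 54.0% for AtM and 43.2% for LEA_1. These orders of classes mostly describe a few genes each and were not tested.

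**Figure D4:**
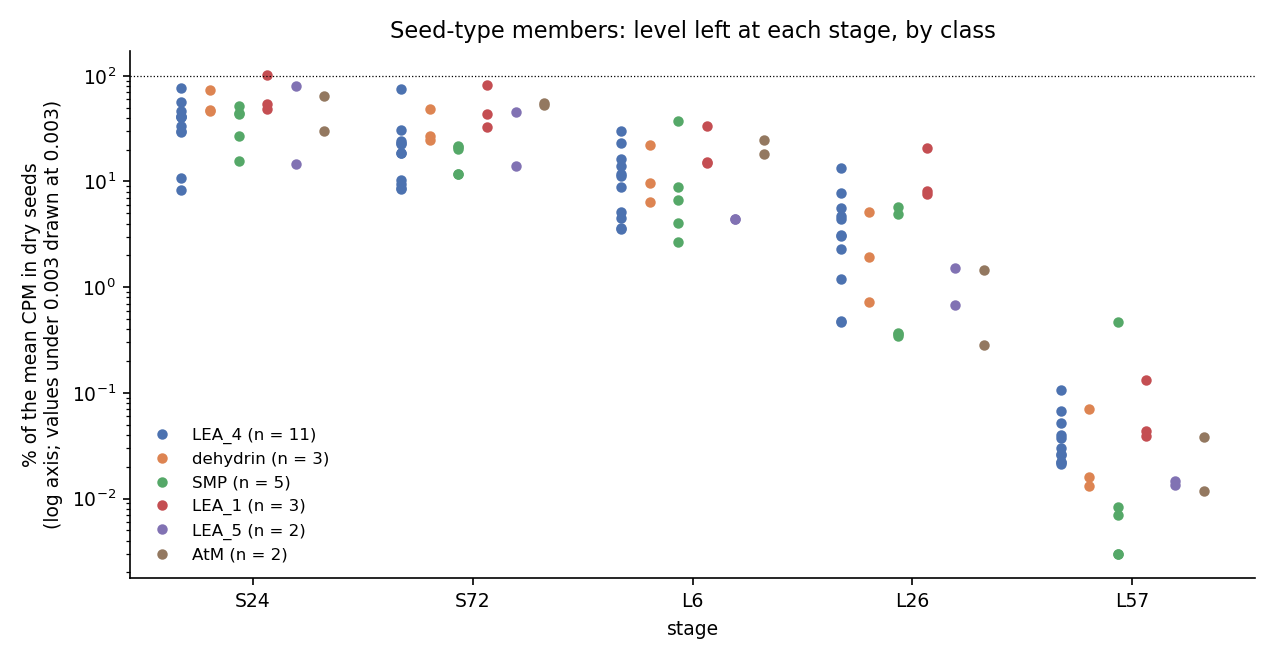
Level left (y axis, percent of the mean CPM in dry seeds, log axis) at 5 stages (x axis) for the 26 seed-type members with at least 1 CPM in DS, coloured by class, each point 1 member. At L26 the LEA_1 points lie between 7.55% and 20.6% and the AtM points between 0.284% and 1.46%.

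The L26 libraries differed from each other in one direction. Replicate 1 was higher than replicate 2 in 24 of 24 seed-type members with at least 1 CPM in L26 replicate 2 and in both DS libraries, by 1.02 to 1.75 times (median 1.44). The 4 seed markers moved with them, with sums of 1662 CPM in replicate 1 and 1091 CPM in replicate 2, and the 3 endosperm markers summed to 929 and 764 CPM. The part of seed tissue or of germination timing in this difference was not tested. The numbers of members called from L6 to L26 and from L26 to L57 stayed within 38 to 42 when single libraries of those stages were left out.

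Of the vegetative dehydrins, 4 rose from seed to seedling. COR47 measured 1.47 and 1.41 CPM in DS, 0.273 and 0.212 at S24, 2.55 and 3.82 at S72, 28.2 and 29.0 at L6, 97.4 and 92.9 at L26, and 136 and 130 at L57. It thus fell from DS to S24 (log2 -3.13, SE 0.22, adjusted p = 5.06e-08), rose from S24 to S72 (log2 3.76, SE 0.19, adjusted p = 4.50e-09) and ended far above the dry seed (log2 6.17, SE 0.17, adjusted p = 8.54e-13). AT1G54410 went from 0.754 and 0.800 CPM in DS to 5.77 and 5.84 at S72, 106 and 112 at L26 and 166 and 144 at L57, the largest rise of all members (log2 7.26, SE 0.11, adjusted p = 1.35e-14). ERD10, next to COR47 on chromosome 1, started at 0.635 and 0.871 CPM and reached 32.7 and 34.2 CPM, mostly after L26 (log2 2.91 from L26 to L57, SE 0.14, adjusted p = 5.98e-10).

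ERD14 had a peak in the cold before its final rise. It measured 5.09 and 5.13 CPM in DS, 5.27 and 5.73 at S24, 37.3 and 38.6 at S72, 9.93 and 11.2 at L6, 28.5 and 33.3 at L26, and 179 and 167 at L57. The S24 to S72 rise (log2 2.82, SE 0.10, adjusted p = 3.34e-10), the S72 to L6 fall (log2 -2.30, SE 0.10, adjusted p = 1.95e-10) and the L26 to L57 rise (log2 3.13, SE 0.10, adjusted p = 2.84e-11) were all called. Per length, ERD14 at 169 ± 8.63 TPM, AT1G54410 at 160 ± 16.6 TPM and SAG21 at 178 ± 0.893 TPM led the members at L57. The libraries of ERD14 and AT1G54410 overlapped, and both of SAG21 lay above them by less than the spread of AT1G54410.

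LTI30, a membrane-binding dehydrin induced by cold, was, with LEA14, 1 of 2 vegetative members above 100 CPM in dry seeds. It measured 716 and 803 CPM in DS, 1044 and 1153 at S24, 1418 and 1403 at S72, 42.8 and 38.6 at L6, a mean of 1.91 at L26, and 13.7 and 12.7 at L57. After the move from the cold to the light it fell within 6 h by 5.57 on the log2 scale (SE 0.15, adjusted p = 6.26e-12), the largest fall of any member at that step, and it was called higher again from L26 to L57 (log2 3.43, SE 0.15, adjusted p = 3.55e-10). The S24 to S72 rise (log2 0.39, SE 0.13, adjusted p = 0.0193) was not called without organellar and rRNA features (adjusted p = 0.212) or without S24 replicate 1, S72 replicate 1 or S72 replicate 2 (adjusted p from 0.0544 to 0.181). XERO1 begins 313 bases after the end of LTI30 on the same strand of chromosome 3 and measured 953 and 1118 CPM in DS, 515 and 479 at S72, 234 and 228 at L6, 59.4 and 48.3 at L26 and 0.727 and 0.740 at L57. In CPM, LTI30 was thus above its DS level at S72 and XERO1 below its own, a difference that was not itself tested. With TMM factors the DS to S24 log2 fold change of LTI30 was -0.03 (SE 0.13, adjusted p = 0.860), although all of its S24 values in CPM were above those in DS.

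COR15A and COR15B, classic cold-induced chloroplast LEA_4 genes of leaves, were almost silent in seeds, also after 72 h of cold. COR15A had at most 0.132 CPM and COR15B at most 0.154 CPM in any library. The median vegetative log2 fold change therefore includes a pair of genes that were hardly measured.

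LEA_2 proteins are folded, unlike most of the family. LEA14 fell through the series up to L26 and was higher again at L57, with 570 and 659 CPM in DS, 486 and 561 at S24, 379 and 385 at S72, 105 and 108 at L6, 10.4 and 9.19 at L26, and 17.9 and 18.0 at L57. It was called lower from DS to L57 (log2 -5.47, SE 0.13, adjusted p = 2.21e-13) and higher from L26 to L57 (log2 1.52, SE 0.11, adjusted p = 5.26e-08). AT2G44060 rose from 5.33 and 5.42 CPM in DS to 21.4 and 23.2 at L6 and 138 and 122 at L57 (log2 4.22 over the series, SE 0.11, adjusted p = 5.48e-13). AT2G46140 peaked in the cold, at 36.5 and 38.9 CPM at S72 against 11.4 and 13.4 in DS and 5.56 and 4.78 at L57, and was called lower overall (log2 -1.64, SE 0.11, adjusted p = 5.57e-09).

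In LEA_3, whose members SAG21 and DI21 respond to oxidative stress and drought, both rose to a maximum at L26. SAG21 measured 12.7 and 14.1 CPM in DS, 26.8 and 24.0 at S24, 79.2 and 93.3 at S72, 135 and 133 at L6, 352 and 367 at L26, and 142 and 139 at L57 (DS to L57 log2 3.02, SE 0.08, adjusted p = 8.05e-13). DI21 went from 10.4 and 9.58 CPM in DS to 108 and 103 at L26 and 21.6 and 19.1 at L57 (DS to L57 log2 0.65, SE 0.12, adjusted p = 2.83e-04). AT1G02820, an unassigned member of the class, measured at most 1.28 CPM in any library.

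Among the unassigned members, AT3G02480, which codes for a short LEA_4 protein, had a second peak around germination. It measured 139 and 151 CPM in DS, 118 and 180 at S24, 187 and 174 at S72, 103 and 96.2 at L6, 439 and 392 at L26, and 2.88 and 5.14 at L57. The rise from L6 to L26 (log2 2.02, SE 0.40, adjusted p = 6.42e-04) ran against all seed-type members with a called change at that step, and the fall that followed was steep (log2 -6.02, SE 0.49, adjusted p = 1.28e-07). AT2G03850 (LEA_4) appeared late, with at most 0.0529 CPM up to S72, 6.30 and 6.89 CPM at L26 and 3.41 and 2.97 at L57 (DS to L57 log2 5.84, SE 0.48, adjusted p = 7.04e-08). The PvLEA18 neighbours on chromosome 2 had different courses, though the difference between them was not tested. AT2G23110 went from 416 and 472 CPM in DS to 264 and 320 at S24, 259 and 231 at S72, 242 and 232 at L6, 60.2 and 51.8 at L26 and 0.436 and 0.526 at L57 (log2 -10.21, SE 0.22, adjusted p = 9.30e-14 from DS to L57). AT2G23120, which begins 475 bases after it ends, went from 102 and 113 CPM in DS to 88.9 and 104 at S24, 130 and 129 at S72, 29.4 and 28.5 at L6, 37.0 and 34.1 at L26, and 35.2 and 34.7 at L57 (log2 -1.99, SE 0.11, adjusted p = 7.78e-10 from DS to L57). From S72 to L6 AT2G23120 fell more (log2 -2.62, SE 0.11, against -0.50, SE 0.14), whereas after L6 the large falls were those of AT2G23110 (log2 -2.11, SE 0.14, from L6 to L26 and -6.20, SE 0.20, from L26 to L57).

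The unassigned dehydrins were AT4G39130, which went from 27.0 and 30.2 CPM in DS to 0.0311 and 0.0178 CPM at L57, and AT4G38410, which reached 1.86 and 2.15 CPM at L26 and at most 0.251 CPM elsewhere. AT5G38760, another short LEA_4 gene, had counts in dry seeds only, 20 and 41 of them, or 0.264 and 0.364 CPM. Markers of pollen, which a seed lot could hold, moved with it. Of 11 pollen markers, 10 were called lower from DS to S24, against 24.8% of all genes tested, and the sums were 102 and 147 CPM in DS, 35.6 to 36.0 at S24 and 17.5 to 44.9 CPM in the 12 libraries of the other groups, most of it from the marker TUA1, which was the 1 called higher. The defining pollen gene VGD1 measured 22.4 and 30.9 CPM in DS and 0.143 and 0.181 at S24, and was at 0 in the mutants. The part of such material in the dry seed levels of AT5G38760 was not tested.

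Of 20 known regulators of the family 19 were tested, of which 10 were called lower from DS to L57, against 37.7% of all genes tested, and 5 higher, against 40.5%. ABI5 measured 243 and 231 CPM in DS, 112 and 114 at S24, 63.1 and 67.0 at S72, 36.5 and 35.2 at L6, 20.7 and 16.5 at L26, and 0.498 and 0.508 at L57 (log2 -9.25, SE 0.21, adjusted p = 1.28e-13). ABI3 in contrast peaked in the cold at 647 and 680 CPM (S72) from 140 and 168 CPM in DS, and had 2.96 and 3.59 CPM at L57 (log2 -5.91 from DS to L57, adjusted p = 3.51e-13). The seed bZIP gene bZIP67 had 1.16 and 1.32 CPM in DS and no counts at L57, at least 43.0-fold lower. The cold regulator CBF2 had no counts in DS and 0.395 and 0.454 CPM at L57, at least 12.8-fold higher, with 1.60 and 1.23 CPM at S72.

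In the mutants, the mutated genes were looked at first. HEN2 measured 17.2 and 15.3 CPM at L57 and 68.7 and 66.3 CPM in the libraries labelled hen2-4, so that its counts were higher there and not lower (log2 2.16, SE 0.08, adjusted p = 8.20e-09). RRP4 measured 6.07 and 4.81 CPM at L57 and 6.88 and 4.70 CPM in the libraries labelled rrp4-2 (log2 0.17, SE 0.12, adjusted p = 0.359). Counts per gene do not show which part of a transcript was read, the methods of the study treat rrp4-2 as a nucleotide substitution, which need not alter the level of RRP4, and give no lesion for hen2-4. Neither gene therefore checks the labels.

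Against L57, 13 of 47 members were called in the libraries labelled hen2-4, 7 higher and 6 lower (all genes: 19.7% and 10.6%), and 12 in those labelled rrp4-2, 9 higher and 3 lower (all genes: 18.0% and 8.54%). These shares are near those of all genes. Both comparisons use the same L57 libraries. With DESeq2 size factors the splits were 6 higher and 10 lower, and 4 higher and 4 lower. Without organellar and rRNA features, the split in rrp4-2 was 5 higher and 3 lower. With L57 replicate 2 or hen2-4 replicate 1 left out, 6 members were called in hen2-4, all of them higher, and without L57 replicate 1 or rrp4-2 replicate 1, 5 and 6 were called in rrp4-2. Many calls in the mutants thus depended on 1 library.

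The vegetative members COR47, ERD10 and LEA14 were higher in the libraries labelled hen2-4 under every alternative tried. COR47 measured 136 and 130 CPM at L57 against 196 and 190 CPM for hen2-4 and 155 and 163 CPM for rrp4-2 (log2 in hen2-4 0.64, SE 0.13, adjusted p = 0.00205). ERD10 measured 32.7 and 34.2 CPM, 51.6 and 54.7 CPM and 30.8 and 37.4 CPM in the same order (log2 in hen2-4 0.77, SE 0.12, adjusted p = 5.14e-04), and LEA14 17.9 and 18.0, 31.3 and 29.8, and 24.8 and 21.3 CPM (log2 in hen2-4 0.87, SE 0.11, adjusted p = 8.25e-05). AT1G54410 measured 166 and 144 CPM at L57 against 165 and 152 CPM for hen2-4 and 111 and 108 CPM for rrp4-2, and was called lower there (log2 in rrp4-2 -0.42, SE 0.07, adjusted p = 0.00136).

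The traces of seed-type transcripts left at 57 h in the light differed between the mutants. They summed to 16.5 and 23.0 CPM at L57, 7.91 and 16.3 CPM in the libraries labelled hen2-4 and 35.2 and 27.0 CPM in those labelled rrp4-2. Of 27 seed-type members, 4 were called lower in hen2-4 (M10, AT2G42560, AT4G21020 and LEA4-1) and 0 higher (all genes: 10.6% and 19.7%). In rrp4-2, 5 were called higher (LEA4-1, LEA18, LEA4-5, AT1G72100 and XERO1) and M10 lower (all genes: 18.0% and 8.54%). The 4 lower in hen2-4 and the 5 higher in rrp4-2 are near the shares of all genes. LEA4-1 measured 0.706 and 0.846 CPM at L57, 0.311 and 0.433 CPM for hen2-4, and 1.60 and 1.58 CPM for rrp4-2. Its rise in rrp4-2 (log2 1.11, SE 0.20, adjusted p = 0.00175) held under every alternative, whereas its fall in hen2-4 (log2 -0.97, SE 0.23, adjusted p = 0.00702) was not called without L57 replicate 2 or hen2-4 replicate 1. LEA18 measured 1.39 and 2.00, 0.606 and 1.35, and 3.88 and 3.69 CPM in the same order, and LEA4-5 1.45 and 2.41, 1.10 and 2.26, and 5.40 and 3.80 CPM. LEA18 was called higher in rrp4-2 (log2 1.22, SE 0.30, adjusted p = 0.00973), as was LEA4-5 (SE 0.33, adjusted p = 0.0110), but both were lost without L57 replicate 1 (adjusted p of at least 0.111), and LEA4-5 also without rrp4-2 replicate 1 (adjusted p = 0.0726). In hen2-4 neither log2 fold change was called (-0.71, SE 0.32, adjusted p = 0.114, and -0.12, SE 0.33, adjusted p = 0.871). All 3 LEA_1 genes had both rrp4-2 libraries above both L57 libraries.

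M10 was the one seed-type member called lower in both mutants, with 0.301 and 0.276 CPM at L57, 0.0621 and 0.134 in hen2-4 (log2 -1.44, SE 0.36, adjusted p = 0.00900) and 0.0965 and 0.0751 in rrp4-2 (log2 -1.67, SE 0.37, adjusted p = 0.00553). These levels rest on 29 and 31 counts in the L57 libraries, and both calls were lost with L57 replicate 2 left out (adjusted p = 0.0747 and 0.0556), that in hen2-4 also without L57 replicate 1 or hen2-4 replicate 1. AT2G42560 and AT4G21020 were called lower in hen2-4 (log2 -1.40, SE 0.38, adjusted p = 0.0139, and -1.19, SE 0.28, adjusted p = 0.00650), and AT1G72100 higher in rrp4-2 (log2 1.13, SE 0.34, adjusted p = 0.0276), and each lost its call under at least 1 alternative, AT2G42560 and AT4G21020 without L57 replicate 2 or hen2-4 replicate 1. AT2G03850, an unassigned member, measured 3.41 and 2.97 CPM at L57 against 1.87 and 1.74 CPM for hen2-4 and 0.801 and 0.807 CPM for rrp4-2, and was called lower in rrp4-2 (log2 -1.90, SE 0.30, adjusted p = 6.14e-04).

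**Figure D5:**
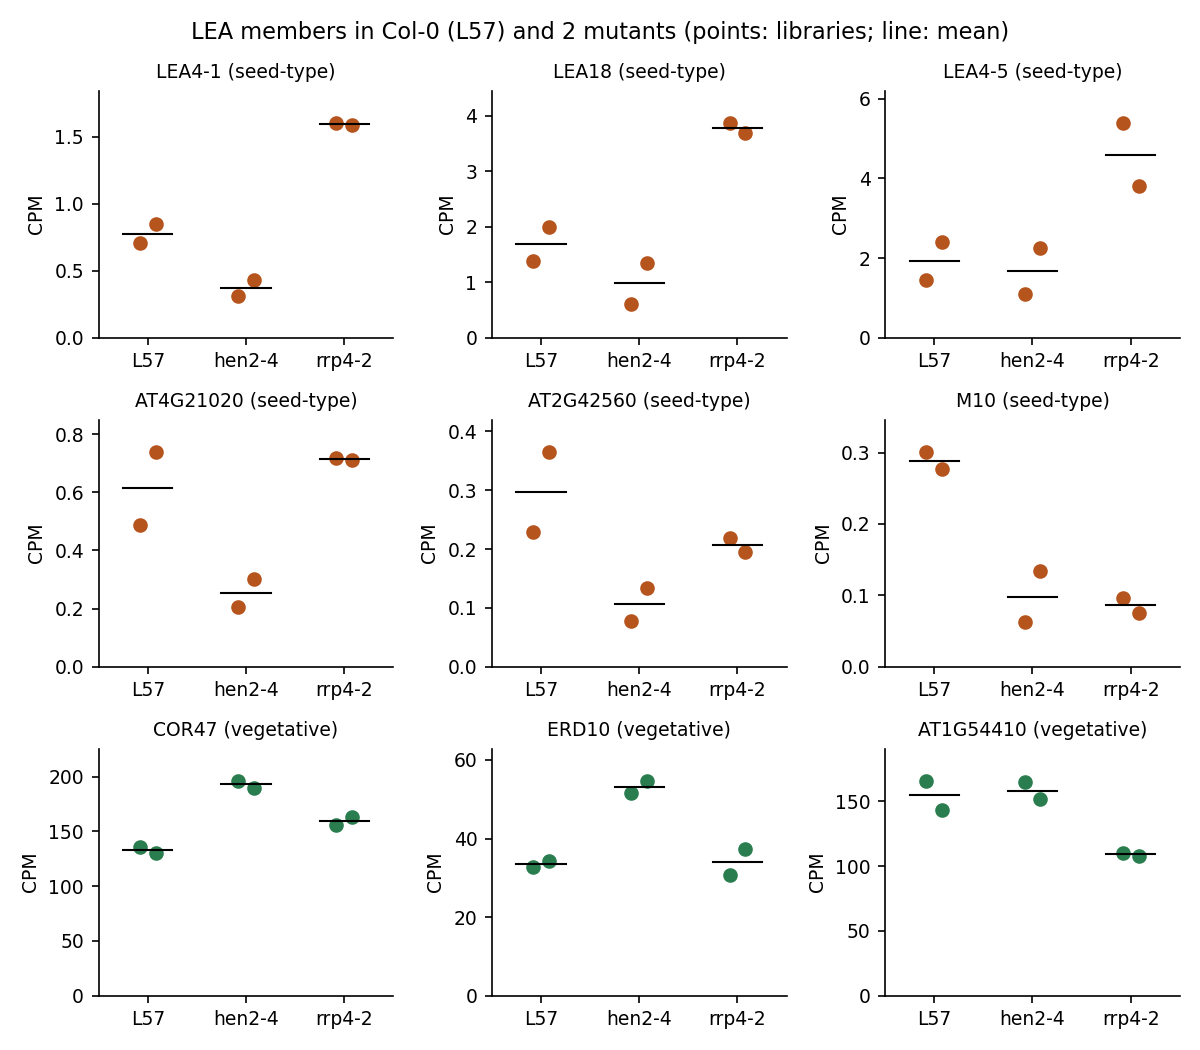
CPM (y axes, from 0) of 9 members in the L57, hen2-4 and rrp4-2 libraries (x axes), where points are libraries and the line is their mean. LEA4-1 sits at 1.60 and 1.58 CPM in rrp4-2 above 0.706 and 0.846 CPM at L57, and ERD10 at 51.6 and 54.7 CPM in hen2-4 above 32.7 and 34.2 CPM.

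Compared directly, 19 members differed between the mutants, 13 higher and 6 lower in rrp4-2 than in hen2-4 (all genes: 4.96% and 4.55%), and 10 of the 13 were seed-type. The number was 9 without hen2-4 replicate 1 and 9 without rrp4-2 replicate 1. The members LEA4-1 (log2 2.07, SE 0.20, adjusted p = 5.15e-05), LEA18 (log2 1.93, SE 0.29, adjusted p = 0.00131) and AT4G21020 (log2 1.46, SE 0.24, adjusted p = 0.00226) were higher in rrp4-2 under every alternative. Seed markers moved in the same direction: the sum of the 4 was 34.3 and 40.9 CPM at L57 against 20.2 and 21.8 CPM for hen2-4 and 53.3 and 37.9 CPM for rrp4-2. The part of residual seed tissue or of developmental timing in the differences between the mutants was not tested.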

How the data were processed

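Total RNA depleted of rRNA was sequenced with a stranded kit in 16 libraries. The authors trimmed reads with HOMER 4.11.1, mapped them to TAIR10 with STAR 2.7.9a and quantified transcripts with StringTie 2.1.4 against Araport11 and their de novo transcripts. The deposited values are estimated counts per transcript of 61786 transcripts, whole numbers not scaled between libraries, and TPM of 46640 of them, which the authors deposited as a separate table and describe as TMM-normalized. Reads that mapped to several places were kept at 1 of them at random. The sources used here do not state how the counting used strand, so antisense reads of a member cannot be told apart. Transcripts of near-identical paralogues share reads, and the division is an estimate. One count column whose name spells rrp4 differently was read as rrp4-2 replicate 1. De novo coordinates were used to find transcripts within 1000 bp of members.

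Counts were summed per locus and fitted in R 4.3.3 with the quasi-likelihood test of edgeR 4.0.16, using TMM factors and filterByExpr. All 16 libraries entered 1 model, which had 8 groups and left 8 residual degrees of freedom. Each of 9 comparisons was tested two-sided, with Benjamini-Hochberg adjustment over all 28824 genes, and "called" means an adjusted p under 0.05. SE was derived from the F statistic, whose square root is the ratio of the size of the change to its SE. CPM is the count per 1000000 counts of the library, with SD over 2 libraries. Intervals and the floor of 3 counts cover counting error only. Under DESeq2 size factors the all-gene median log2 fold change shifted by -0.15 from DS to S24, by 0.16 from L26 to L57 and by 0.17 from DS to L57. With 194 organellar and rRNA features removed, the shifts were 0.22, 0.11 and 0.24, and -0.21 from S24 to S72. Small changes in these comparisons carry that uncertainty.

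Alternatives were these 2 scalings, the DESeq2 1.42.0 Wald test, no filter, only the 4 libraries compared, a replicate block, each library left out in turn and a shorter seed-type list. When a library was left out, the lone one was assumed to vary like other groups. Promoters are the 250 bases before the RefSeq gene start on TAIR10.1, whose nuclear chromosomes are those of TAIR10. They were read for all 51 members and 27443 genes. The fits were tested on simulated data. Named members are all members of classes of up to 3, the 3 most abundant by TPM of larger classes, members called in a mutant with an absolute log2 fold change of at least 1, vegetative members called higher and seed-type members not called lower from DS to L57, tandem neighbours, and the 3 regulators with the largest called change. AT3G53040, AT5G38760, AT3G02480, RAB28, AT5G27980, AT4G39130, AT4G38410, AT5G44310 and ABI3 were described beyond the rule after their values were seen. The members, types and lists were chosen with earlier results of these data known. Python 3.11.15, numpy 2.4.6, pandas 2.3.3 and matplotlib 3.10.9 were used.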

Additional observations from a re-analysis of the deposited data

Results flagged for a closer look

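For 8 named members the difference of a mutant from L57 was not the same in both mutants, by the direct edgeR test between the libraries labelled hen2-4 and rrp4-2. LEA4-1 was higher in rrp4-2 by a log2 of 2.07, LEA18 by 1.93, LEA4-5 by 1.42, AT3G02480 by 1.61 and AT4G21020 by 1.46. Lower in rrp4-2 were ERD10 at -0.66, AT2G03850 at -1.19 and AT1G54410 at -0.56. The adjusted p ranged from 5.15e-05 (LEA4-1) to 0.0299 (AT3G02480), and in each of the 8 both libraries of a mutant lay on the same side of both libraries of the other. LEA4-5, AT3G02480 and AT2G03850 were not called without hen2-4 replicate 1 or without rrp4-2 replicate 1, and ERD10 not without rrp4-2 replicate 1.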

How the results depend on the processing

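Of 78 fold changes of named members, 57 kept their direction and their side of the threshold under every alternative. Over all 780 fits of these, 730 did, 41 lost and 7 gained the call, and 2 turned the direction, both for LEA4-5 in hen2-4, which was not called: 0.41 without L57 replicate 2 and 0.32 without hen2-4 replicate 1, in a range over left-out libraries from -0.73 to 0.41. Fitted on the 4 libraries alone, 20 members were called from L57 to hen2-4 instead of 13, although fewer were tested (23 of 27 seed-type and 11 of 12 vegetative). With single libraries left out, the number called ranged from 6 to 19 (L57 to hen2-4), 5 to 9 (L57 to rrp4-2) and 9 to 20 (hen2-4 to rrp4-2). The seed-type median from DS to L57 ranged from -12.39 to -11.86 and kept its direction. The vegetative median of 1.84 was 2.06 with DESeq2 size factors and 2.06 with DESeq2 fold changes, 2.02 without organellar and rRNA features and 3.17 with the 4 libraries alone, where 1 vegetative member was not tested and the difference between the types was -15.27. The other causes were not tested. Replicate numbers did not pair the libraries (deviations correlated from -0.0471 to 0.0910 over 28 pairs of groups). The replicate block gave 39 members from DS to S24, 24 from S24 to S72, 44 from DS to L57, 12 from L57 to hen2-4 and 12 from L57 to rrp4-2, and changed the call of none of the 78. At L57 and in the mutants many seed-type members had under 1 CPM, so differences there rest on few counts.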

Other observations

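A de novo transcript of the authors lies past the 3′ end of the seed-type LEA_4 gene AT5G44310, on the other strand and without overlap. It measured 0.225 and 0.213 CPM in DS, 6.73 and 6.09 at L6, 6.78 and 7.36 at L26, 0.602 and 0.339 at L57, 4.26 and 4.76 for hen2-4 and 6.54 and 5.99 for rrp4-2, while AT5G44310 itself fell from 1013 and 933 CPM in DS to 157 and 158 at L6 and 0.301 and 0.285 at L57. Another, antisense to LTI30 over 715 bases, measured 0.270 and 0.294 CPM at L57, 0.866 and 1.17 CPM for hen2-4 and 0.718 and 0.676 CPM for rrp4-2, and LTI30 13.7 and 12.7, 13.9 and 14.9, and 11.3 and 13.6 CPM in the same order. These transcripts were not part of the comparisons and were not tested.

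The division of ERD14 between its transcript models changed between replicates: AT1G76180.2 had 0 CPM in S72 replicate 1 and 36.4 CPM in S72 replicate 2, while AT1G76180.1 had 37.3 CPM in the former. The sum per locus was 37.3 and 38.6 CPM.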
